A study of Ictidomys tridecemlineatus with 15 samples.

Results

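The acute-phase plasma proteins considered here are A2m, Hp, Orm1, Crp, Fga, Fgb, Fgg, Itih3, Itih4 and Alb, 10 genes taken by their symbols. A member is a unit of the count table in which one of these symbols stands among the names. Of the 10 genes, 8 have such a unit, among 6324 units in the table. Hp and Orm1 have none and were dropped. A2m, Fgb and Fgg are units of a single gene. The other 5 are merged units, whose counts cannot be divided among the genes in them.

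Nascent transcription was measured by global run-on sequencing (GRO-seq) in frozen liver of 13-lined ground squirrels, hibernators that pass the winter in bouts of torpor broken by short arousals. GRO-seq extends the RNA of polymerases that are already engaged on DNA in isolated nuclei, here with a brominated nucleotide, so its reads report transcription and not the amount of stored mRNA. The 14 libraries came from 14 female animals of a breeding colony, housed in the laboratory, with no genetic change and no drug. The paper gives an implanted recorder or a rectal probe as the source of body temperature. Each replicate is a separate animal, and the state was assigned from body temperature and time.

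SA (summer active, 3 libraries) animals were warm and had not begun to hibernate. IBA (interbout aroused, 3 libraries) animals were warm during an arousal between winter torpor bouts. Ent (entrance, 3 libraries) animals were cooling into torpor, ET (early torpor, 3 libraries) animals were newly torpid and cold, and LT (late torpor, 2 libraries) animals had been torpid and cold for days. A further LT library was not used here. The animals came from 3 collection seasons. The first held SA replicate 1, Ent replicates 1 and 2 and both LT libraries. The second held the 3 ET libraries and no others. The third held SA replicates 2 and 3, the 3 IBA libraries and Ent replicate 3. ET therefore cannot be told apart from its season, and IBA and LT share no season.

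Plasma proteins of the acute phase are made by hepatocytes and secreted into blood. In inflammation, interleukin-6 acting through STAT3, together with interleukin-1, raises the transcription of the positive acute-phase genes, whereas the negative ones, albumin first among them, are transcribed less. Alpha-2-macroglobulin is a broad protease inhibitor and a strong acute-phase protein in the rat; in hibernating ground squirrels it is a long-known liver product of the winter.

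Total counts per library ranged from 3713883 to 8884763. Levels are given as CPM, reads on a unit per 1e6 reads of a library scaled by edgeR's TMM factors, and comparisons between genes use CPM per kb of unit. These levels are relative to the rest of a library, so overall transcription was not measured. A unit said to rise or fall did so against the other units. The paper states that scaling by library size hides changes in overall transcription between states. The 8 member units together took between 0.298% of the counts, in ET replicate 2, and 1.50%, in IBA replicate 1. Hepatocyte markers had units for 9 of 10 genes, with summed levels of 18090 to 26730 CPM in SA, 16430 to 20690 in IBA, 12000 to 15380 in Ent, 6110 to 10400 in ET and 7169 to 11280 in LT. No marker unit was at 0. Endothelial markers had 4 units of 13 genes, at 228.0 to 257.5 CPM in IBA and 148.3 to 161.3 in LT. Macrophage markers had 1 merged unit of 15 genes, stellate markers 1 of 11, cholangiocyte markers 2 of 8 and lymphocyte markers 0 of 10, so these cells were barely covered. In whole liver, fewer cells of a type and less transcription per cell cannot be told apart.

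Across the 5 states, 5 of the 8 member units passed the edgeR quasi-likelihood test at a Benjamini-Hochberg adjusted p of 0.05, against a background of 62% of all units. They were A2m (adjusted p = 0.00179), the Itih4 unit (0.0042), Fgb (0.00869), the ALB unit (0.0117) and the Crp unit (0.0191). Fgg (0.0555), the Fga unit (0.0679) and the Itih1:Itih3 unit (0.865) did not. A share of 5 in 8 is close to that of all units.

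**Figure D1:**
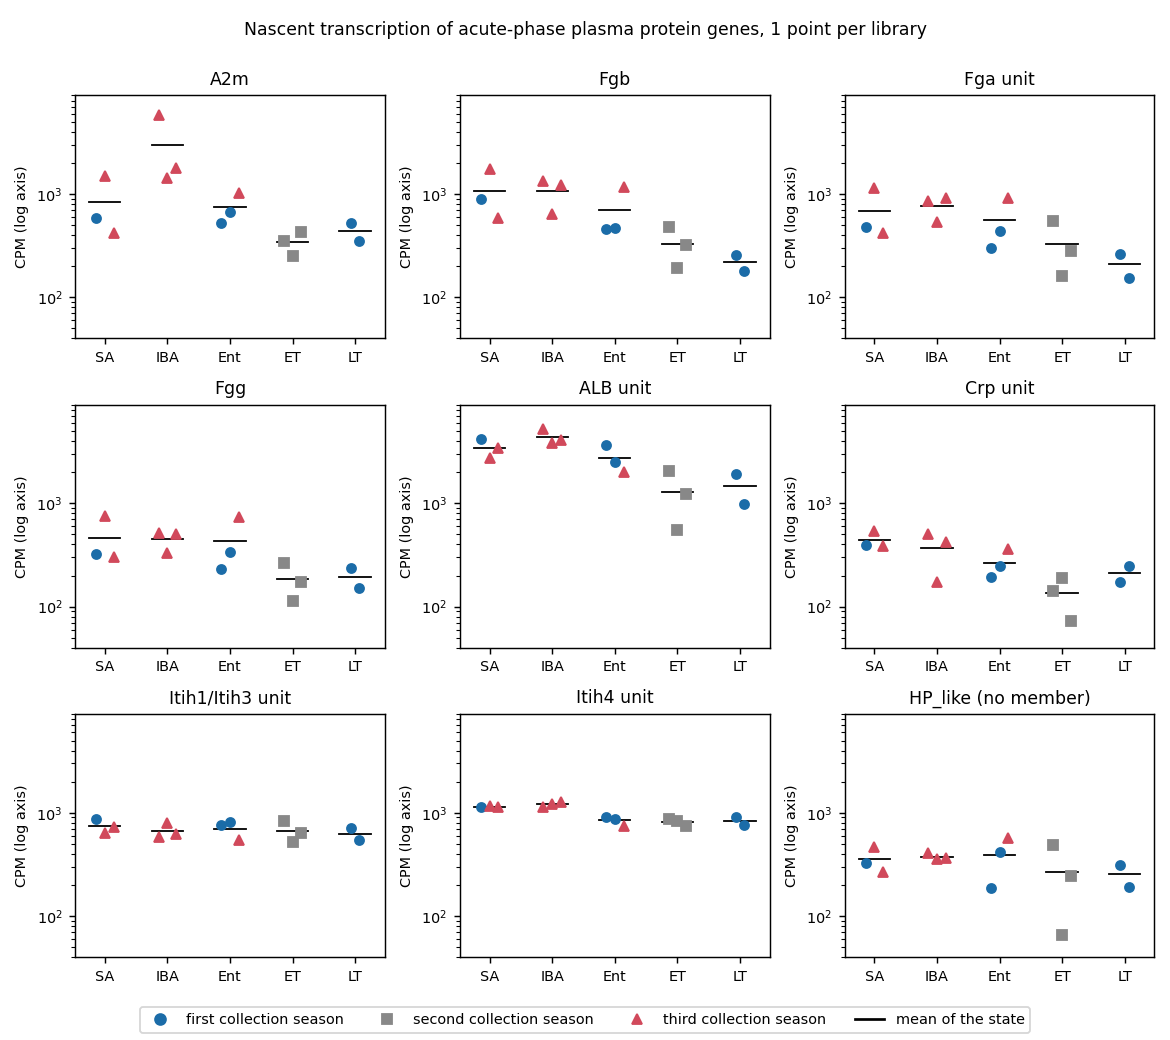
Levels of the 8 member units and of HP_like, which is no member, in CPM on a log axis. Each point is 1 library, its shape and colour give the collection season, and the black line is the mean of the state. A2m is highest in the 3 IBA libraries as a group, at 1413 to 5767 CPM, while the Itih1:Itih3 unit stays between 524 and 871 CPM in all libraries.

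A2m showed the widest range of the members. Its unit lies on the plus strand of Itri4 of the HiC_Itri_2 genome, from 98303648 to 98349791, and spans 46144 nt. In SA the 3 libraries had 590.02, 1498 and 416 CPM. In IBA they had 5767, 1413 and 1771 CPM, and in Ent 526, 668 and 1030.0 CPM. In ET they had 348, 252 and 432 CPM and in LT 519 and 348 CPM. IBA lay above Ent, ET and LT without overlap, whereas SA replicate 2 reached into the IBA range. The state means were 835 ± 581 (SA), 2984 ± 2417 (IBA), 741 ± 260 (Ent) and 344 ± 90.3 CPM (ET), each with its SD over 3 libraries. The mean over the 2 LT libraries was 434 ± 120.

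From IBA to Ent, A2m fell 4.02-fold (log2 fold change −2.01, SE 0.57, edgeR quasi-likelihood adjusted p = 0.0308). From IBA to LT it fell 6.88-fold (log2 −2.78, SE 0.68, adjusted p = 0.00499). The mean in IBA was 3.58 times that in SA (log2 1.84, SE 0.56), but this difference did not pass (adjusted p = 0.0761). DESeq2 gave log2 1.83 with an adjusted p of 0.00847 for that step. Neither Ent to ET (log2 −1.11, adjusted p = 0.152) nor SA to LT (log2 −0.94, adjusted p = 0.232) passed.

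IBA replicate 1 carried much of the A2m difference. Without it, the change from SA to IBA was log2 0.93 (adjusted p = 0.349), that from IBA to Ent was −1.10 (adjusted p = 0.171), and that from IBA to LT was −1.88 and still passed (adjusted p = 0.0149). The call from IBA to Ent was also lost without any one of the Ent libraries. Without SA replicate 2, the change from SA to IBA was log2 2.57 and passed (adjusted p = 0.0226). The spread of A2m over the 3 IBA libraries, an SD of 1.09 on the log2 scale, exceeded that of 99.6% of all units, whose median SD in IBA was 0.15. In CPM per kb, A2m ranked between 8 and 67 among all units in the IBA libraries and between 359 and 985 in the ET libraries.

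The values of A2m were also set out by season of collection. In SA the third-season libraries, at 416 and 1498 CPM, lay on either side of the first-season library at 590.02. Within the third season A2m averaged 2984 CPM in IBA, 957 in SA (2 libraries) and 1030.0 in the single Ent library. Within the first season it was 590.02 CPM in the single SA library, 597 in Ent (2 libraries) and 434 in LT (2 libraries). With season as a term and ET left out, the change from IBA to LT was log2 −1.99 (SE 0.89, adjusted p = 0.107) and that from IBA to Ent −1.54 (adjusted p = 0.185), so that both calls were lost.

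Pzp, a second alpha-2-macroglobulin family gene, lies 29266 nt upstream of A2m on the same strand, at Itri4 98229587 to 98274381. Its state means ran from 284 CPM in SA through 221 in IBA, 129 in Ent and 72.5 in ET to 89.5 in LT. Pzp fell from IBA to LT (log2 −1.30, adjusted p = 0.0259). Its highest state mean was in SA, that of A2m in IBA; from SA to IBA the log2 values were −0.37 for Pzp and 1.84 for A2m, and neither passed. The difference between these values was not tested. Reads of polymerases that run on past the end of an upstream gene cannot be told apart from a unit's own reads.

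The fibrinogen chains form the next group. Fibrinogen is the soluble precursor of the fibrin clot, assembled in hepatocytes from alpha, beta and gamma chains that Fga, Fgb and Fgg encode. The 3 units lie together on Itri15: Fgg on the plus strand from 38195353 to 38205860, Fga (merged with a SNORA20 gene) on the plus strand from 38217695 to 38229649, and Fgb on the minus strand from 38223178 to 38240363. The gap between Fgg and Fga is 11834 nt. Fga and Fgb overlap by 6472 nt on opposite strands, and because the strand setting of the counting is not given in the sources used here, reads in the overlap may belong to either gene.

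Fgb had 888, 1758 and 586 CPM in SA and 1340, 643 and 1214 CPM in IBA. In Ent it had 460, 463 and 1173 CPM, in ET 475, 191 and 318 CPM, and in LT 259 and 180 CPM. Both LT libraries lay below every SA, IBA and Ent library. Fgb fell 4.85-fold from IBA to LT (log2 −2.28, SE 0.59, adjusted p = 0.0065) and 4.91-fold from SA to LT (log2 −2.29, SE 0.59, adjusted p = 0.00643). It also fell from Ent to LT (log2 −1.67, SE 0.57, adjusted p = 0.0462), a comparison in which it was the only member called, of 8 against a background of 27% of all units. That call was lost when any 1 of 7 libraries was left out, with values between −1.95 and −1.07, and with season as a term (−1.22, adjusted p = 0.102).

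The Fga unit had 474, 1152 and 420.02 CPM in SA, 849, 538 and 923 CPM in IBA, 301, 437 and 923 CPM in Ent, 543, 161 and 280.4 CPM in ET, and 264 and 155 CPM in LT. As with Fgb, the LT values lay below those of SA, IBA and Ent, and ET overlapped LT. It fell from IBA to LT (log2 −1.88, SE 0.62, adjusted p = 0.0236) and from SA to LT (log2 −1.70, adjusted p = 0.0361). The SA to LT value was −1.09 without SA replicate 2 (adjusted p = 0.133), and the call was also lost without LT replicate 1 or 3, with season as a term (−0.94, adjusted p = 0.151) and with uniquely mapped reads as library size (adjusted p = 0.0501). Without IBA replicate 3 the adjusted p for IBA to LT was 0.056, and without LT replicate 1 it was 0.0587.

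Fgg had 321, 748 and 305 CPM in SA, 521, 328 and 501 CPM in IBA, 233, 335 and 739 CPM in Ent, 264, 113 and 173 CPM in ET, and 236 and 153 CPM in LT. LT lay below SA and IBA but not below all of Ent. From IBA to LT the difference was log2 −1.21 (SE 0.53, adjusted p = 0.0759), and it did not pass. SA replicate 2 was the highest SA library and Ent replicate 3 the highest Ent library for each of the 3 chains, and both came from the third season. SA replicate 3, also of the third season, was the lowest SA library for each chain. Within the first season Fgb was at 888 CPM in the SA library and averaged 462 in Ent and 220 in LT. With season as a term, IBA to LT was −1.36 for Fgb (adjusted p = 0.118), −0.81 for the Fga unit (adjusted p = 0.302) and −0.12 for Fgg (adjusted p = 0.878). From SA to LT, Fgb still fell with that term (log2 −1.68, adjusted p = 0.0306).

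**Figure D2:**
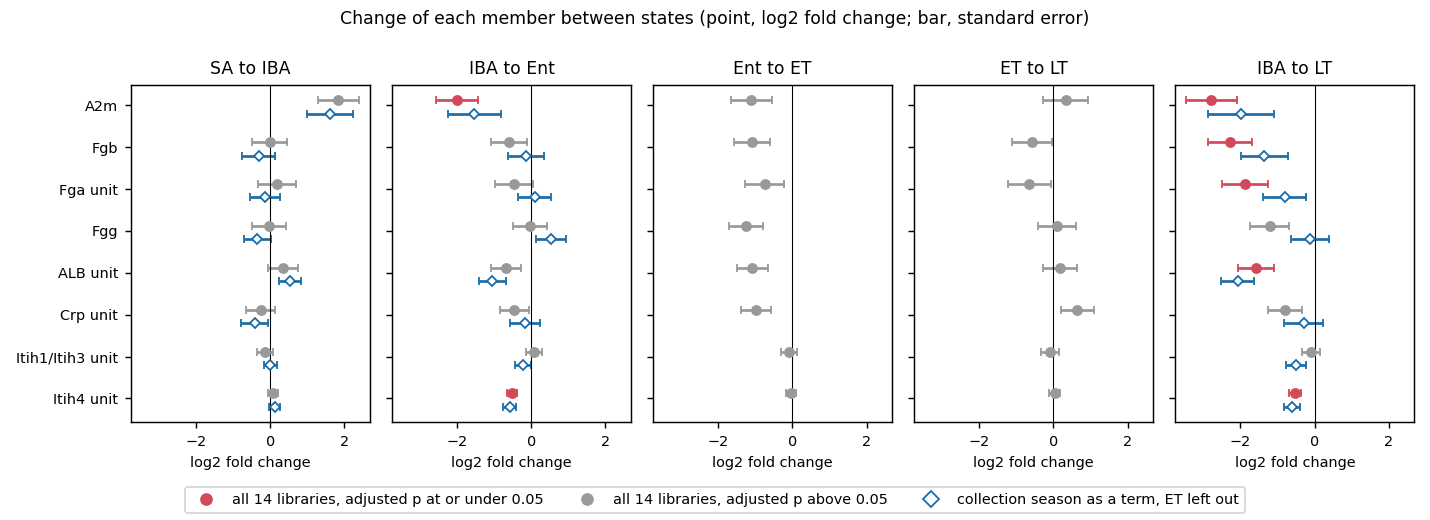
Log2 fold changes of the 8 member units in 5 comparisons. Circles are from the fit of all 14 libraries, red where the adjusted p was at or under 0.05, and open diamonds are from the fit with collection season as a term; bars are standard errors. In IBA to LT the red points of A2m, Fgb and the Fga unit lie further from 0 than their diamonds. Those of the ALB and Itih4 units lie nearer.

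The balance between the chains was compared within libraries as ratios of reads per kb, which do not depend on library scaling. The Fgg to Fgb ratio averaged 0.713 ± 0.131 (SA), 0.715 ± 0.105 (IBA), 1.01 ± 0.177 (Ent) and 0.921 ± 0.0406 (ET), each with its SD over 3 libraries. Over the 2 LT libraries it averaged 1.44 ± 0.0722. All 5 cold libraries (ET and LT, 0.887 to 1.49) lay above all 6 warm ones (SA and IBA, 0.591 to 0.852). The log2 ratio was 0.14 ± 0.36 in the cold and −0.50 ± 0.21 in the warm libraries, a difference of 0.64 (two-sided exact permutation test, p = 0.00433, the smallest that 6 against 5 libraries allow, and 0.00433 after adjustment over 2 ratios).

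The Fga to Fgb ratio rose in the same comparison, from a log2 mean of −0.03 ± 0.23 (n = 6) to 0.44 ± 0.19 (n = 5). The difference was 0.47 (two-sided exact permutation test, p = 0.00433, adjusted 0.00433), without overlap between the groups of libraries. Both ratios have Fgb below the line and so include the stretch it shares with Fga, which the Fga to Fgb ratio holds on both sides. Fga lies 11834 nt downstream of Fgg on the same strand, and reads running on past Fgg cannot be told apart from those of Fga. Their part in the Fga to Fgb ratio was not tested. Within the first season the Fgg to Fgb ratio was 0.591 in the SA library and 1.49 and 1.39 in LT, with 0.828 and 1.18 in Ent. Within the third it was 0.696 and 0.852 in SA, 0.636 to 0.834 in IBA and 1.03 in Ent. No season held enough warm and cold libraries for a test within it.

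**Figure D3:**
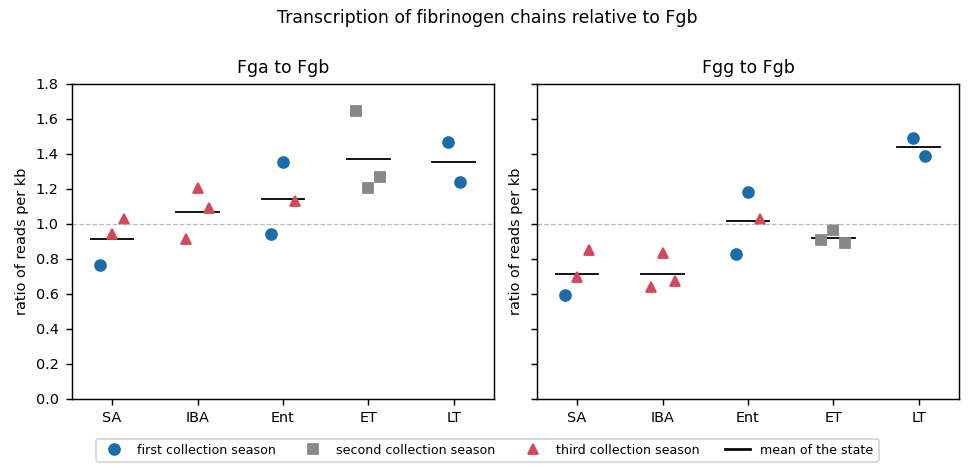
Ratio of reads per kb of Fga and of Fgg to Fgb in each library. Each point is 1 library, shape and colour give the collection season, the black line is the mean of the state and the dashed line marks a ratio of 1. The Fgg to Fgb ratio is below 0.86 in all SA and IBA libraries and above it in all ET and LT libraries.

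Albumin, the main carrier protein of plasma and a negative acute-phase protein, had the highest mean of the members in every state, in CPM and per kb. In single libraries A2m exceeded it in CPM in IBA replicate 1, though not per kb. The Itih4 unit exceeded it in CPM in ET replicate 2 (836 against 555). Per kb, Fgb exceeded it in SA replicate 2 (102 against 96.7) and the Fga unit in Ent replicate 3 (77.2 against 70.4). The ALB unit, merged with a predicted gene G10207, lies on the minus strand of Itri14 from 13531415 to 13559717. It had 4150, 2736 and 3444 CPM in SA and 5184, 3850 and 4108 CPM in IBA. In Ent it had 3642, 2520 and 1993 CPM, in ET 2059, 555 and 1235 CPM, and in LT 1936 and 978 CPM. IBA lay above Ent, ET and LT without overlap. Per kb, the ALB unit ranked 5 or 6 among all units in each IBA library, and between 7 and 62 in ET.

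The ALB unit fell 3.01-fold from IBA to LT (log2 −1.59, SE 0.48, adjusted p = 0.016) and 2.36-fold from SA to LT (log2 −1.24, adjusted p = 0.0456). The SA to LT call was lost when any 1 of 8 libraries was left out, with values between −1.82 and −0.83. Unlike the values of A2m and the fibrinogen chains, its value grew with season as a term, to log2 −2.07 (SE 0.44, adjusted p = 0.00659) for IBA to LT and −1.54 (adjusted p = 0.01) for SA to LT. From IBA to LT the values of the Itih4 unit (−0.61 against −0.53) and the Itih1:Itih3 unit (−0.50 against −0.10) grew as well. The ALB unit was then also called from Ent to LT (log2 −1.02, adjusted p = 0.0492, and −0.90 with adjusted p = 0.171 without the term). Within the first season it was 4150 CPM in SA, 3081 in Ent and 1457 in LT. AFM, an albumin family gene 5518 nt from the unit on the same strand, went from 35.5 CPM in IBA to 4.85 in LT (log2 −2.87, adjusted p = 0.00718).

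Libraries ordered the members differently within a state. Ent replicate 3 was the highest Ent library for A2m, the Crp unit and the 3 fibrinogen chains, and the lowest for the ALB unit and both Itih units. SA replicate 2 was likewise highest in SA for A2m, the Crp unit and the 3 chains and lowest for the ALB and Itih1:Itih3 units. ET replicate 2 was the lowest ET library for A2m, the chains, ALB and Itih1:Itih3, but the highest for the Crp unit. With 2 or 3 libraries a state, no library was tested as an outlier.

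C-reactive protein, a pentraxin that binds damaged cells and microbes, is counted in a unit of 4 names on Itri11, minus strand, from 5775575 to 5928700, and 153126 nt long. The Crp unit had 397, 539 and 389 CPM in SA, 510, 174 and 420 CPM in IBA, 192, 250 and 359 CPM in Ent, 142, 190 and 72.3 CPM in ET, and 174 and 248 CPM in LT. SA lay above Ent, ET and LT without overlap, while IBA replicate 2 lay among the ET and LT values. It passed across the 5 states but in none of the 7 pairs tested. The nearest to passing was SA to LT (log2 −1.07, SE 0.46, adjusted p = 0.0698). Apcs, the other short pentraxin, ends 71 nt before the unit on the opposite strand. It rose from 32.7 ± 19.3 CPM in SA to 77.9 ± 47.9 over the 2 LT libraries (log2 1.25, adjusted p = 0.0241). It was at 34.2 ± 4.67 CPM in ET and did not pass across the 5 states (adjusted p = 0.0547). From IBA to LT its value was 0.76 (adjusted p = 0.142).

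The inter-alpha-trypsin inhibitor heavy chains bind hyaluronan in the extracellular matrix, and Itih4 responds to interleukin-6 in human liver cells. The Itih1:Itih3 unit (Itri2, plus strand, 170396139 to 170433969) ranged from 524 to 871 CPM over all 14 libraries and passed no test. The Itih4 unit (Itri2, minus strand, 170428607 to 170645260) also holds Mustn1, Tmem110 and Sfmbt1 and overlaps the former by 5363 nt. It had 1134, 1167 and 1137 CPM in SA, 1142, 1208 and 1279 CPM in IBA, and 913, 871 and 745 CPM in Ent. In ET it had 864, 836 and 749 CPM and in LT 917 and 759 CPM. All SA and IBA libraries lay above all others.

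The Itih4 unit fell from IBA to Ent (log2 −0.52, SE 0.13, adjusted p = 0.0208), from IBA to LT (log2 −0.53, SE 0.15, adjusted p = 0.0114) and from SA to LT (log2 −0.45, adjusted p = 0.0254). Its steps were small. Of all units, 1.06% varied less over the SA libraries, 21% over IBA, 36% over Ent, 16.3% over ET and 62% over LT. From Ent to ET it moved by −0.05 (adjusted p = 0.822). The IBA to Ent call was lost without any one IBA library (adjusted p = 0.0507, 0.0565 and 0.0776) or without Ent replicate 2 (0.053) or 3 (0.0802). With season as a term all 3 calls were lost, at −0.59 from IBA to Ent (adjusted p = 0.0651), −0.61 from IBA to LT (0.055) and −0.49 from SA to LT (0.0601). With uniquely mapped reads as library size they were lost too, at −0.38 (adjusted p = 0.0595), −0.35 (0.0659) and −0.26 (0.153).

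HP_like, a unit whose name resembles haptoglobin but does not match the symbol Hp, is given only for orientation. It had 326, 470 and 266 CPM in SA, 408, 358 and 362 CPM in IBA, and 188, 413 and 576 CPM in Ent. In ET it had 491, 65.6 and 242 CPM and in LT 315 and 193 CPM. The states overlapped except that LT lay below IBA, and the unit did not pass across the 5 states (adjusted p = 0.771).

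Taken by transition, no member passed from SA to IBA (0 of 8, background 5.22%). There 1 had an unadjusted p under 0.05 and DESeq2 called 1 (10.9% of all units). No member was free of overlap between these states, against 27.9% of all units. From IBA to Ent, 2 of 8 passed, A2m and the Itih4 unit, both lower, against 16.1% of all units called and 7.34% called lower. The median log2 change of the 8 members was −0.50, against −0.00 for all units. In the same step 3 members did not overlap between the groups, against 43.4% of all units.

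From Ent to ET, 0 of 8 passed against a background of 28.8%, although all 8 values were negative and 2 units did not overlap (43.2% of all units), with a median of −1.03 against −0.01 for all units. With uniquely mapped reads as library size the Itih1:Itih3 and Itih4 units were at 0.03 and 0.07 instead. In that step 4 members had an unadjusted p under 0.05, and DESeq2 called 3 (34.5% of all units). The share of all units with an unadjusted p under 0.05 was not taken. From ET to LT, 0 of 8 passed, against 0.269% of all units, and none had an unadjusted p under 0.05. DESeq2 called 0 (1.83% of all units). Here 0 of 8 did not overlap, against 24% of all units. The ET to LT values lay between −0.65 and 0.65.

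From IBA to LT, 5 of 8 passed, all lower, against 49.8% of all units called and 25% called lower. The median of the members was −1.40 against −0.05. All 8 values were negative, except that the Itih1:Itih3 unit was at 0.08 with uniquely mapped reads as library size, and 6 units did not overlap, against 74.4% of all units. From SA to LT, 4 of 8 passed, all lower, against 49.2% called and 25.4% called lower, with a median of −1.15 against −0.04, and 6 did not overlap, against 64.8%. From Ent to LT, 4 did not overlap, against 57.6%. At an adjusted p of 0.001, edgeR called 0 members in any comparison, against 25.5% of all units across the 5 states, 17.4% from IBA to LT, 15.7% from SA to LT, 2.29% from Ent to LT, 2.21% from Ent to ET, 0.0316% from IBA to Ent, 0.0158% from SA to IBA and 0% from ET to LT. DESeq2 at that threshold, a setting added after seeing the data, called 5 of 8 across the 5 states (50% of all units), 3 from IBA to LT (31.9%; A2m, Fgb and the Itih4 unit), 1 from SA to LT (31.4%; Fgb) and 1 from IBA to Ent (7.07%; the Itih4 unit). It called 0 members from SA to IBA (3.5% of all units), Ent to ET (14.8%), ET to LT (0.585%) and Ent to LT (14.3%). IBA to LT and SA to LT share the LT libraries. Leaving out either LT library makes LT a single library, assumed to vary like the other states. Without LT replicate 3, 0 of 8 were called in either comparison, with IBA to LT at −2.52 for A2m (adjusted p = 0.0529) and −2.04 for Fgb (adjusted p = 0.0635). Without LT replicate 1, 4 of 8 were called from IBA to LT and 3 of 8 from SA to LT. With season as a term, 1 of 8 remained from IBA to LT, the ALB unit, and 2 of 8 from SA to LT, Fgb and the ALB unit.

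The units most like A2m in pattern were found among the 4704 other single-gene units by the root mean square difference of their centred log2 CPM over the 14 libraries. They were Dusp10 (0.56), a phosphatase of stress-activated MAP kinases, Kcnt2 (0.57), a potassium channel, Nedd9 (0.60), an adhesion scaffold, FTCDNL1_containing (0.61) and Kif21a (0.62), a kinesin. The median over all these units was 1.20. Like A2m, the 5 had their highest mean in IBA, which is no separate result, as they were picked for likeness over these same libraries. Dusp10 averaged 193 CPM in SA, 290 in IBA, 117 in Ent, 71.5 in ET and 70.2 in LT. Their log2 changes from IBA to LT lay between −2.04 and −1.35, nearer 0 than that of A2m.

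**Figure D4:**
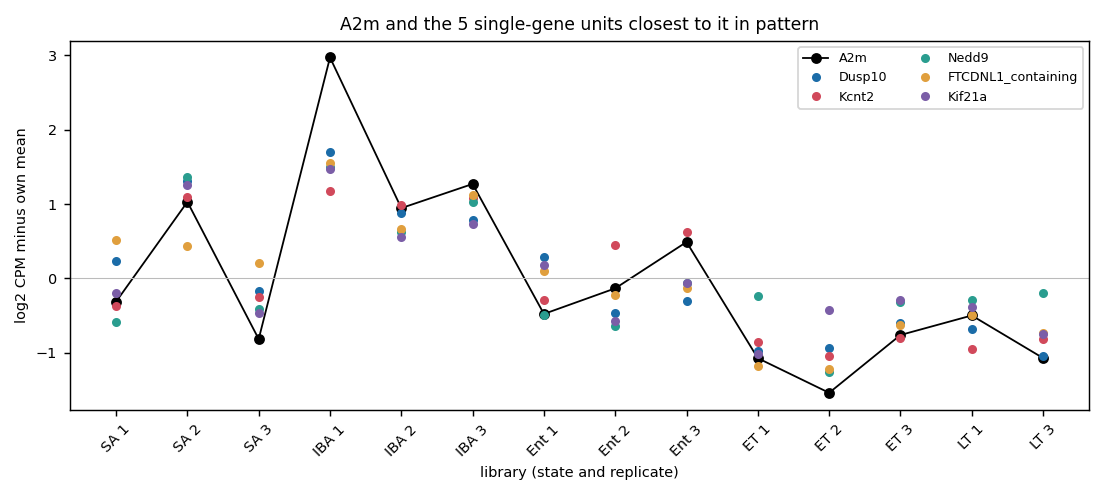
Log2 CPM of A2m (black line) and of the 5 single-gene units closest to it, each minus its own mean over the 14 libraries, by library. IBA replicate 1 is the highest library for A2m, at 5767 CPM, and the 5 other units are spread around the line.

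For Fgb, the closest units were AKR1C1_like (0.29), Fgg (0.39), St6gal1 (0.48), the sialyltransferase of plasma glycoproteins, Sall1 (0.49) and SLC39A14 (0.49), a zinc and iron importer of hepatocytes, against a median of 1.05. Fgg was thus the second closest of all single-gene units to its neighbour Fgb.

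Genes around the members were counted from lists of symbols. Of 27 other positive acute-phase genes, 14 had a unit, and from IBA to LT 1 rose and 3 fell, against 49.8% of all units called in that comparison. Their median log2 change was −0.54, against −0.05 for all units. The units that fell include the merged unit Hrg:Fetub:Ahsg, which is also counted in the negative list. Lbp, the carrier of bacterial lipopolysaccharide, rose from 59.2 ± 32.0 CPM in IBA to 183 ± 41.5 in Ent (log2 1.62, adjusted p = 0.0363) and was at 169 ± 23.8 in LT (log2 1.50 from IBA, adjusted p = 0.0271). The merged unit Lsr:Usf2:Hamp, which holds the gene of the iron hormone hepcidin, fell from 367 CPM to 97.3 (log2 −1.92, adjusted p = 0.000832). Steap4, a metalloreductase, rose from 45.4 ± 8.52 CPM in IBA to 107 ± 64.4 in Ent (log2 1.24, adjusted p = 0.0221). It fell to 57.5 ± 8.08 CPM in ET (log2 −0.90, adjusted p = 0.0497). Its Ent libraries were at 66, 74.4 and 181 CPM, and SA averaged 76.4 ± 11.8.

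Of 14 other negative acute-phase genes, 11 had a unit, 12 units in all, and from IBA to LT 10 fell and 0 rose, against 49.8% of all units called and 25% called lower, with a median of −2.23. Ttr, the carrier of thyroid hormone and retinol-binding protein, fell from 1007 CPM to 188 (log2 −2.42, adjusted p = 0.000117). Transferrin, the iron carrier, is counted in Tf (log2 −1.35, adjusted p = 0.000118) and in the merged unit TF:Srprb (log2 −2.68, adjusted p = 0.0001). Only uniquely aligned reads were counted, and how alike these units are in sequence was not examined. Gc:RABL2A, with the vitamin D carrier, fell by 2.51 on the log2 scale (adjusted p = 0.000183). The unit Hrg:Fetub:Ahsg, counted in both lists because its names stand in both, fell by 2.39 (adjusted p = 0.00134). Over the same comparison the summed level of the hepatocyte markers went from 16430 to 20690 CPM to 7169 to 11280. Of their 9 units, 6 were called, counted in either direction, against 49.8% of all units. Alb, Ttr and Apoa1 are themselves among these markers. The part of this in the members' values was not tested.

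Of 9 other genes of the inter-alpha-trypsin inhibitor and alpha-2-macroglobulin families, 5 had a unit, but that of Itih1 is the member unit Itih1:Itih3. Of the other 4 units, 2 fell from IBA to LT, against 49.8% of all units called, with a median of −0.55. These were Pzp and Itih2, which fell by 1.22 (adjusted p = 0.000192). Ambp, the gene of the inhibitor's light chain bikunin, was at 548 CPM in IBA and 590 in LT (log2 0.11, adjusted p = 0.639). The unit Shmt2:Nxph4:Lrp1, which holds the receptor that clears alpha-2-macroglobulin complexes, had log2 0.21 (adjusted p = 0.385).

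Of 31 genes of interleukin-6, interleukin-1 and STAT3 signalling, 21 had a unit, and from IBA to LT 3 rose and 6 fell, against 49.8% of all units called, with a median of −0.17. Il6r, the interleukin-6 receptor, was at 211 ± 14.9 CPM in IBA and 163 ± 3.31 in LT (log2 −0.37, adjusted p = 0.198), after a fall from Ent to ET (log2 −0.92, adjusted p = 0.00608). Ptpn11, a phosphatase that binds the interleukin-6 signal transducer, rose by 1.18 (adjusted p = 0.000773), and so did Traf6, an adaptor of interleukin-1 signalling, by 1.45 (adjusted p = 0.00027). Tnfrsf1a, the tumour necrosis factor receptor, fell by 1.34 (adjusted p = 0.000596).

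Of 17 transcription factors that act on these genes in hepatocytes, 16 had a unit, and from IBA to LT 2 rose and 8 fell, against 49.8% of all units called and 25% called lower, with a median of −0.88. Hnf4a, a nuclear receptor of hepatocytes, fell from 819 ± 71.6 CPM to 387 ± 45.6 (log2 −1.08, adjusted p = 0.000633), and the Foxa3 unit (log2 −2.51, adjusted p = 6.11e-05) and Nr5a2 (log2 −1.28, adjusted p = 8.76e-05) fell as well. With season as a term, 4 units of the positive list, 9 of the negative list and 1 of the families were called. So were 6 of the signalling genes and 7 of the factors. The member unit Itih1:Itih3 was not among them (edgeR quasi-likelihood adjusted p = 0.171). The share of all units called in that fit was not taken, so these counts have no background.

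**Figure D5:**
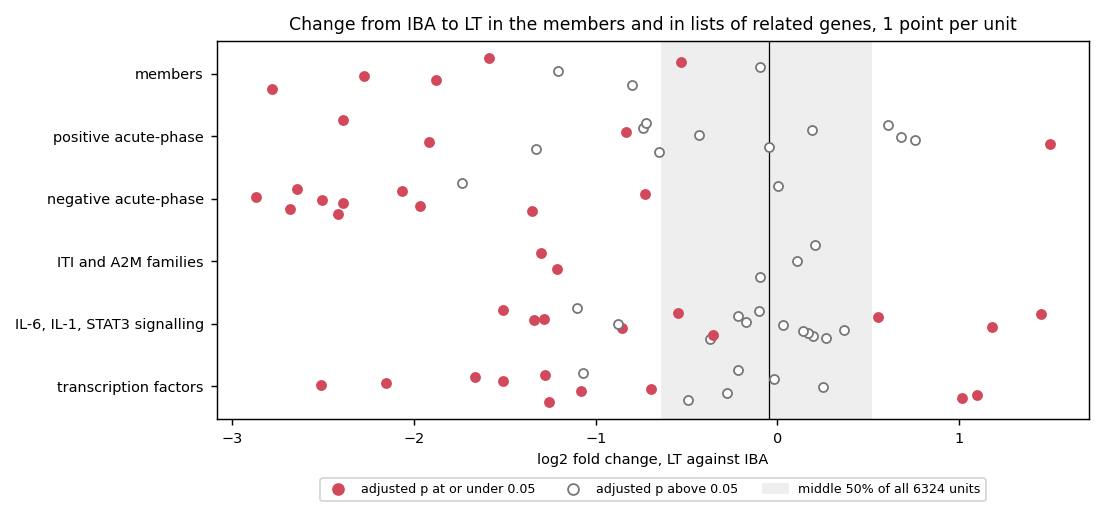
Log2 fold change from IBA to LT, 1 point per unit, for the 8 members and the 5 lists of related genes. Filled points had an adjusted p at or under 0.05, the grey band holds the middle 50% of all 6324 units and the line is their median of −0.05. The 10 filled points of the negative acute-phase list all lie to the left of the line, and those of the signalling genes and factors lie on both sides. The unit Itih1:Itih3 appears both among the members and in the list of the inhibitor families.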

How the data were processed

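The authors trimmed GRO-seq reads with cutadapt, aligned them with BWA to the HiC_Itri_2 genome, redefined gene bodies from the reads, left out the first 500 nt after each start, merged overlapping genes and counted uniquely aligned reads with featureCounts. The deposited values are these raw read counts, not normalized. All 6324 units and 14 libraries were fitted here by state in edgeR 4.0.16 (R 4.3.3) with TMM and quasi-likelihood F tests, adjusted by Benjamini-Hochberg over all units; the threshold was an adjusted p of 0.05, and 0.001, the study's, was an alternative. DESeq2 1.42.0 was another. Log2 CPM used a prior count of 2. Fibrinogen ratios were tested by exact permutation (scipy 1.17.1). States were taken from the labels and seasons from the study's animal table. The members and lists were chosen with earlier results of these data known. Named genes are all members, the nearest units of a member, the 4 units of each list with the lowest p across the 5 states, and the 5 units closest in pattern to A2m and to Fgb. Of the nearest units, those of a member's own family or overlapping it are described. A transcription factor that this rule names is not reported here. No sequence of this build was used here. Counts of different libraries of a state differed by more than sampling noise. Only the edgeR comparison of IBA to LT was tried on simulated data, and the other steps were not.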

Additional observations from a re-analysis of the deposited data

How the results depend on the processing

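No member's called value changed sign under any alternative. Values that had not passed did: with collection season as a term, IBA to Ent was 0.09 for the Fga unit and 0.52 for Fgg, against −0.48 and −0.05, and values near 0 of Fgb, Fgg, the Fga unit and both Itih units crossed 0 under other alternatives. Among other scalings and tests, DESeq2 called 1 member from SA to IBA (10.9% of all units). It called 3 from Ent to ET (34.5%) and 2 from Ent to LT (33.1%). Upper-quartile normalization called 1 from Ent to ET (28% of all units). With uniquely mapped reads as library size, 1 member was called from IBA to Ent (20.6% of all units) and 1 from SA to LT (50.1%). Across the 5 states 3 were called, and the share of all units was not taken there. At an adjusted p of 0.001, edgeR called 0 members from IBA to Ent, IBA to LT, SA to LT and Ent to LT and across the 5 states; DESeq2 at 0.001, added after seeing the data, called 1, 3, 1, 0 and 5 of them. With collection season as a term, 0 were called from IBA to Ent, 1 from IBA to LT and 2 from SA to LT. The cause was not tested. The share of all units called in that fit was not taken, so these counts have no background. A minimum of 10 counts in every library changed no count of members by over 1.5 times.

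Leaving out 1 library at a time gave 0 to 1 members from SA to IBA, 0 to 2 for IBA against Ent, 0 to 2 for Ent against ET, 0 to 0 for ET against LT, 0 to 6 from IBA to LT, 0 to 5 from SA to LT, 0 to 1 from Ent to LT and 5 to 7 across the 5 states. The log2 difference of the Fga to Fgb ratio between cold and warm libraries stayed at 0.39 to 0.53 and that of Fgg to Fgb at 0.53 to 0.72. For the lists from IBA to LT, alternatives chosen after seeing the data called 2 to 5 positive and 9 to 11 negative acute-phase units, 1 to 2 of the inhibitor families, 5 to 10 signalling units and 7 to 11 factors with 1 library left out, and 1, 6, 1, 4 and 5 at an adjusted p of 0.001.

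Replicate numbers are shared between states. Samples of the same number correlated in their deviations from the state means at −0.263 to 0.234 over 26 pairs, those of other numbers at −0.345 to 0.382 over 52, so the numbers do not pair the samples. With the replicate number as a block, 1 member was called from IBA to Ent and 1 from Ent to ET, and 3 calls were lost: A2m from IBA to Ent (−1.89, adjusted p = 0.065), the Fga unit from SA to LT (−1.83, adjusted p = 0.054) and Fgb from Ent to LT (−1.76, adjusted p = 0.0606).

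Scaling to uniquely mapped reads moved the median log2 change of all units to 0.144 (IBA to Ent), 0.105 (Ent to ET), 0.136 (IBA to LT) and 0.145 (SA to LT). The share of all calls that were higher went from 54.4% to 77.4%, 53.3% to 67.5%, 49.8% to 62.6% and 48.2% to 62.2%. DESeq2 called 686 units from SA to IBA against 330, and 116 from ET to LT against 17. ET cannot be told apart from its season, whereas SA and Ent span the season of IBA and that of LT, so the season term separates IBA and LT from season only through them. The members' calls from IBA to LT were lost without LT replicate 3, which left 1 LT library, and 4 of 8 were called without LT replicate 1.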
